A study of Mus musculus with 12 samples.

Results

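Mouse erythroid cells with mutations at Alas2, given the heme precursor 5-aminolevulinic acid (5-ALA) during maturation, were compared with wild-type (WT) cells of the same line. The comparison takes in 6 of the 12 RNA-sequencing libraries of the study, 3 per group. G1E-ER-GATA-1 cells are mouse erythroid precursors without endogenous GATA-1. They carry GATA-1 fused to the hormone-binding part of the estrogen receptor, and beta-estradiol starts their maturation. The WT group received 1 µM beta-estradiol for 48 h. The second group carried mutations at cis-elements of Alas2, is labelled double mutant, and received for the same 48 h 1 µM beta-estradiol together with 1 mM 5-ALA. Mutant cells with estradiol and no 5-ALA (3 libraries) serve here as the reference for what 5-ALA moved. Both groups grew with erythropoietin, medium conditioned by cells that make Kit ligand, and puromycin. WT cells with 5-ALA are not among the libraries, so an effect of 5-ALA that does not pass through heme in mutant cells cannot be told apart from one that does. The labels do not say how many mutant clones were used or whether replicates were separate cultures, so the p-values measure the spread between these libraries, which may be technical.

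Erythroid cells make heme in a pathway that starts and ends in mitochondria. ALAS2, the erythroid 5-aminolevulinate synthase, joins glycine and succinyl-CoA to 5-ALA, and the later enzymes turn 5-ALA into protoporphyrin, into which ferrochelatase inserts iron. Heme then binds globin chains, and it also acts as a signal. It releases the repressor BACH1 from genes of globin, heme oxygenase and thiol metabolism, and it inhibits the kinase HRI (gene Eif2ak1), which otherwise phosphorylates eIF2-alpha and raises translation of the transcription factor ATF4. Added 5-ALA enters the pathway after the ALAS2 step.

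The 6 libraries held 24445166 to 34002081 expected counts. The filter for a test ran over all 12 libraries, 3 of them of untreated WT cells, and kept 12115 of the 25097 genes. A fit of the 2 compared groups alone tested 11401 genes. Between libraries of 1 group Pearson's r over genes was 0.992 or more. Principal components were taken over all 12 libraries. The second (8.53% of the variance) set WT libraries with estradiol at 46.2 to 46.6 and mutant libraries with 5-ALA at -17.3 to -14.6. Mutant libraries without 5-ALA stood at -33.2 to -29.9. The first WT library differed more in its counts from the other two (chi-square over degrees of freedom 14.1 and 11.4) than these did from each other (1.74). Within-group ratios ran from 3.49 to 8.88 for mutant libraries without 5-ALA and from 2.31 to 6.34 with 5-ALA. On the fourth component (0.857% of the variance) the mutant libraries without 5-ALA were spread out, at 21.7, -6.43 and -19.6. The 11 defining erythroid markers summed to 62414 to 63101 counts per 1000000 (CPM, scaled by TMM) in WT libraries and to 60514 to 63936 CPM in mutant libraries with 5-ALA, and Hbb-bs, at 46372 to 48886 CPM in these libraries, made up most of both sums. Of these 11 markers, 4 were called higher and 3 lower with 5-ALA than in WT. The 7 megakaryocyte markers summed to 1851 to 1874 CPM in WT libraries and 725 to 742 CPM in mutant libraries with 5-ALA, and Itgb3 made up nearly all of both sums. Marker sums for mast cells, granulocytes and macrophages, lymphocytes and fibroblasts were at most 1.44 CPM in any of these libraries.

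With 5-ALA supplied, mutant cells still differed from WT cells in most of the genes tested, but mostly by little. Of 12115 genes, 7543 were called (62.3% of those tested, edgeR quasi-likelihood test, adjusted p below 0.05), 4029 higher (33.3%) and 3514 lower (29%) in mutant cells with 5-ALA. Without the first WT library 3828 were higher and 3292 lower. The median absolute log2 difference of the called genes was 0.37, which is 1.30-fold, and 42.8% of them differed by less than 0.32 on the log2 scale, taken here as close to WT. At least 2-fold differences were called for 435 genes that were higher (3.59%) and 506 that were lower (4.18%). The 95% interval of the difference lay within 0.32 of WT in either direction for 3986 genes (32.9%). Libraries of the 2 groups did not overlap for 7985 genes (65.9%). Because the spread between libraries was small, a call here says little about size, and members of a gene list are read below against the shares of 33.3% and 29% and against the median of 0.01 over all genes.

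**Figure D1:**
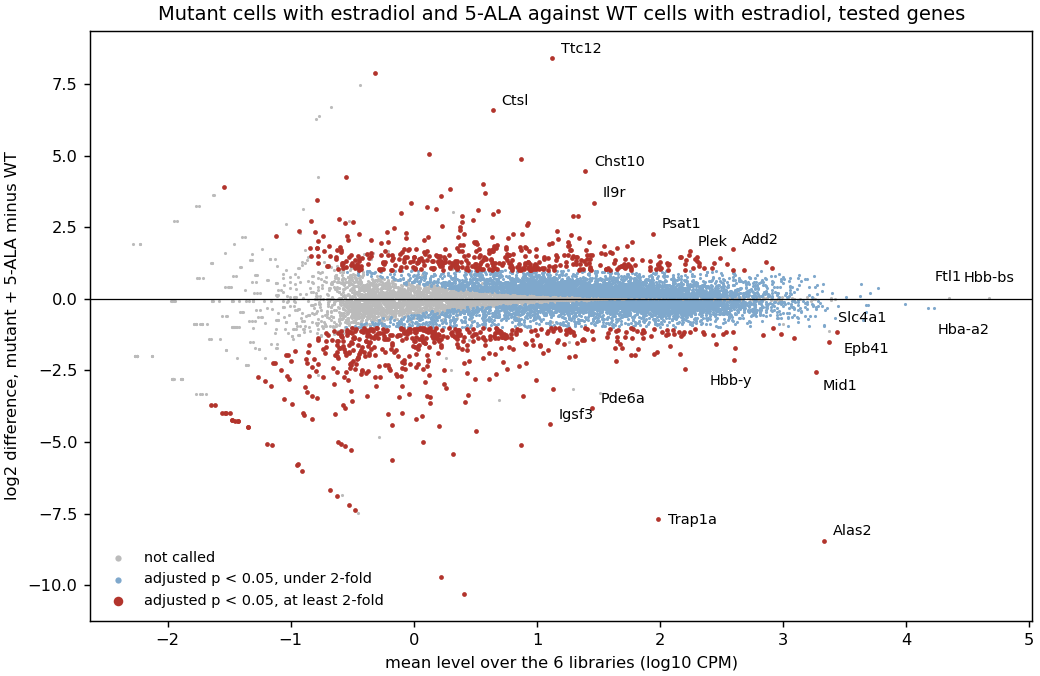
Log2 difference between mutant cells with estradiol and 5-ALA and WT cells with estradiol (vertical axis, 3 libraries each) against the mean level over the 6 libraries (horizontal axis, log10 CPM); each point is 1 of 12103 tested genes with a count in these libraries. Most called genes (blue) lie within 2-fold of WT, while Alas2 and Trap1a lie far below the line, Ttc12 far above it and Hbb-bs on it.

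Mutant cells without 5-ALA, compared with the same 3 WT libraries, differed in 68.8% of the tested genes, 4258 higher (35.1%) and 4076 lower (33.6%), of which 627 (5.18%) and 799 (6.6%) differed at least 2-fold. The comparisons with and without 5-ALA share their WT libraries, so their agreement is no result. The test of what 5-ALA moved is the comparison of the 2 mutant groups, in which 42.6% of genes were called, and 2620 genes rose (21.6%) and 2543 fell (21%), with 215 (1.77%) and 65 (0.537%) of them at least 2-fold. Without the first mutant library 2305 rose and 2552 fell. That split depends on the scale. On log2(TPM + 1) with limma, 806 genes rose and 5719 fell, around a median over all genes of -0.15 in place of 0.01. On that TPM scale mutant cells without 5-ALA had 5618 higher and 2326 lower genes than WT cells, around a median of 0.12.

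The targeted gene stayed low with 5-ALA. Alas2, here ENSMUSG00000025270 on mm10 (chromosome X, 150547375 to 150570638, plus strand), stood at 4309, 4290.5 and 4279.5 CPM in the 3 WT libraries and at 12.4, 12.5 and 12.1 CPM in the 3 mutant libraries with 5-ALA. The groups lay far apart, and the log2 difference was -8.45 (SE 0.129, adjusted p = 1.65e-11). Mutant cells without 5-ALA stood at 7.64 ± 2.2 CPM (mean ± SD, n = 3), below those with it (log2 difference 0.72, adjusted p = 0.00885). Exons of Apex2 overlap Alas2, and reads there may belong to either gene. Gata1 stood at 877, 855 and 873 CPM in WT and 687, 722 and 734 CPM in mutant libraries with 5-ALA (log2 difference -0.28, adjusted p = 4.24e-11), and 5-ALA did not move it detectably (log2 difference -0.02, 95% interval -0.07 to 0.03). Reads at Gata1 may come from the fusion gene as well as from the native locus. Whether the lower Gata1 level has a part in the differences described here was not tested. Gata2, a GATA factor of progenitors, stood at 59.3, 59.5 and 60.7 CPM in WT and 25.9, 29.5 and 27.6 CPM in mutant libraries with 5-ALA, with a log2 difference of -1.11.

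The adult beta-globin Hbb-bs was at the WT level with 5-ALA, both alpha-globins were slightly under it, and the second adult beta-globin and the embryonic globins remained far below. Of the 9 globin genes tested, 6 were lower than in WT and 3 were not called, with a median log2 difference of -0.64, and the highest difference was that of Hbq1b at 0.05 (adjusted p = 0.369). All 9 rose from the level in mutant cells without 5-ALA, beside 21.6% of all genes. Globins took 6.56 to 6.62% of the counts of WT libraries, 2.24 to 2.38% of those of mutant libraries without 5-ALA and 6.16 to 6.57% with it. In these bulk libraries, fewer cells that express a gene and less RNA per cell cannot be told apart. Globin paralogs are near-identical in part, and RSEM divides shared reads among them by a model, so their values depend on each other. Hbb-bh2 had too few counts, and Hbb-b1, Hbb-b2 and Hbb-bh0 are not among the symbols of the tables.

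The adult beta-globin genes Hbb-bs and Hbb-bt, neighbours on chromosome 7, differed in how near they came to WT with 5-ALA. Hbb-bs (chromosome 7, 103826534 to 103828096, minus strand) is the more abundant of the pair here. It stood at 47037, 47025 and 46372 CPM in WT, 12733, 13132 and 13177 CPM in mutant libraries without 5-ALA and 46646, 47938 and 48886 CPM with it. The WT and 5-ALA groups overlapped, with a log2 difference of 0.03 (95% interval -0.16 to 0.22, adjusted p = 0.771). Hbb-bt (chromosome 7, 103812524 to 103813996, minus strand) lies next to it and is the other adult beta-globin gene tested. It stood at 629, 621 and 613 CPM in WT, 34, 30.7 and 28.6 CPM without 5-ALA and 194, 182 and 186 CPM with it. All 3 groups were apart, and with 5-ALA Hbb-bt was still lower than in WT (log2 difference -1.73, SE 0.0325, adjusted p = 1.17e-20). The 110 bases before each start are shown to set the proximal promoters of the pair side by side (RefSeq, GRCm38.p6, which is mm10, minus strand), with capitals for the CACCC box CCACACCC, a letter string that the erythroid factor KLF1 is known to bind.
Hbb-bs, chr7:103827929-103828038: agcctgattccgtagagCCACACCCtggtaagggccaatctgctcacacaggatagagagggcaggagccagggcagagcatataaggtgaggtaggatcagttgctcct
Hbb-bt, chr7:103813924-103814033: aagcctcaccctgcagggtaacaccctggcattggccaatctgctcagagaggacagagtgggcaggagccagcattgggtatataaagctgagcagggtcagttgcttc
The sequences shared 83 of 112 aligned positions (74.1%). In these 110 bases, read on the gene's own strand, the box lies 93 bases before the start of Hbb-bs and is not spelled out for Hbb-bt. A wider search, over 250 bases on either strand, found it in 3.20% of all 32851 RefSeq promoter windows. This describes the reference sequences alone. Whether these cells carry the same bases and the same pair of adult genes was not checked, so the split of counts between the 2 symbols is uncertain.

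The alpha-globins were slightly below WT. Hba-a2 stood at 19116, 18572 and 18954 CPM in WT and 13793, 15225 and 15948 CPM with 5-ALA (log2 difference -0.33, SE 0.0565, adjusted p = 0.000675). Hba-a1 stood at 5287, 5117 and 5195 CPM and 4021, 4656 and 4849 CPM (log2 difference -0.21, adjusted p = 0.0188). In both genes the 5-ALA libraries lay just below the WT ones, and in both the first of them was the lowest. The call of Hba-a1 was lost without the first WT library (adjusted p = 0.0631) and in a fit of the 2 groups alone (adjusted p = 0.0787). The theta-like genes Hbq1a and Hbq1b overlapped WT, with log2 differences of -0.64 (adjusted p = 0.0704) and 0.05. Hbq1a, at 0.541 to 1.16 CPM in these 6 libraries, was called lower without the first WT library (adjusted p = 0.0427), in a fit of the 2 groups alone (0.0405) and with limma on log2(TPM + 1) (0.0138).

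The embryonic globins of both clusters differed from WT by more than 4-fold. Hbb-y stood at 653, 659.7 and 648 CPM in WT, 5.02 CPM on average without 5-ALA and 155, 149.7 and 146 CPM with it (log2 difference from WT -2.12, SE 0.025, adjusted p = 2.22e-31). Hbb-bh1 stood at 269, 268 and 267 CPM in WT and 50.6, 48 and 50.2 CPM with 5-ALA (log2 difference -2.43, adjusted p = 3.37e-31). The embryonic alpha-like Hba-x stood at 67, 72.3 and 77.5 CPM in WT and 14.8, 14.9 and 18 CPM with 5-ALA (log2 difference -2.18, adjusted p = 2.39e-16). In each of them 5-ALA brought a rise of more than 10-fold from the mutant level (log2 differences 4.90, 5.15 and 3.60), and every 5-ALA library stayed below every WT library.

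**Figure D2:**
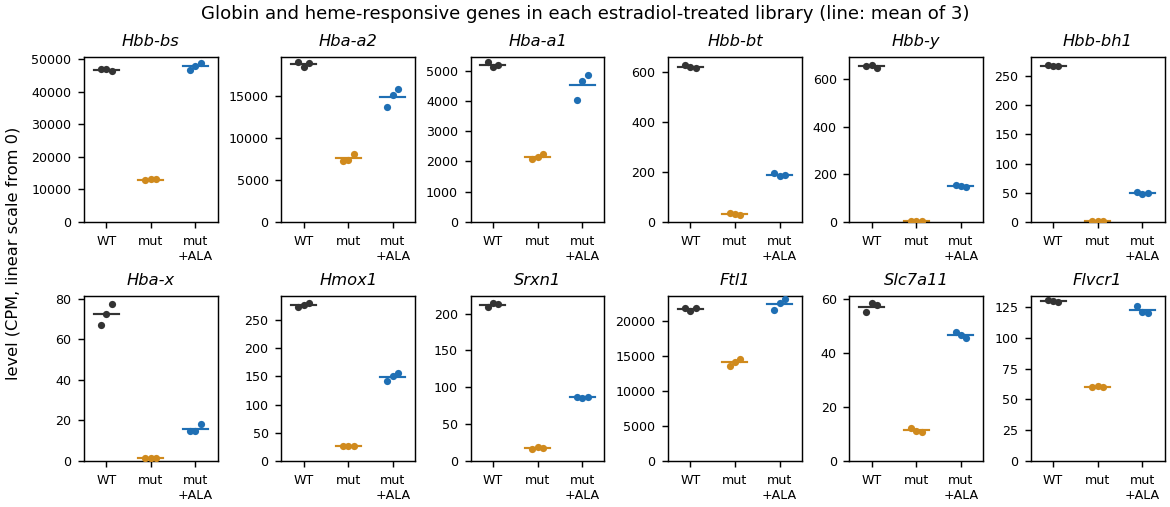
Level of 7 globin genes and 5 heme-responsive or heme-handling genes (vertical axes, CPM from 0, each panel its own scale) in WT cells, mutant cells (mut) and mutant cells with 5-ALA (mut +ALA), all with estradiol; points are libraries and lines means of 3. Hbb-bs and Ftl1 with 5-ALA sit at the WT level, Flvcr1, Slc7a11, Hba-a2 and Hba-a1 just under it, and Hbb-bt, Hbb-y, Hbb-bh1, Hba-x, Hmox1 and Srxn1 between the mutant and WT levels.

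The enzymes that follow ALAS2 were close to their WT levels, and the early ones were somewhat above. Of the 9 enzymes of heme synthesis, 5 were higher and 3 lower than in WT (median log2 difference 0.21), and Alas2 was the only one of them that differed at least 2-fold. Alad, which joins molecules of 5-ALA to porphobilinogen, stood at 261, 258 and 263 CPM in WT and 388, 413 and 418 CPM with 5-ALA (log2 difference 0.64, SE 0.0253, adjusted p = 3.71e-19). Without 5-ALA it stood at 563 ± 10.9 CPM, so that it fell with 5-ALA (log2 difference -0.47, adjusted p = 1.35e-15) and stayed above WT. Ppox, Uros and Urod, which act between porphobilinogen and protoporphyrin, were higher by 0.57, 0.33 and 0.21 on the log2 scale. Cpox, another enzyme of that stretch, and Fech, ferrochelatase, were lower, with log2 differences of -0.14 and -0.14. Alas1, the housekeeping synthase that heme represses, stood at 4.67, 4.26 and 5.13 CPM in WT, 8.27, 8.56 and 8 CPM without 5-ALA and 4.26, 4.14 and 4.24 CPM with it. Its 5-ALA libraries lay at the lower edge of the WT ones (log2 difference -0.14, 95% interval -0.35 to 0.06, adjusted p = 0.241), while the fall from mutant cells without 5-ALA was -0.98 on the log2 scale (adjusted p = 2.79e-10). On TPM values with limma the difference from WT was called (log2 difference -0.30, adjusted p = 0.0186).

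Genes that take up 5-ALA or move porphyrins were mixed, with 5 of 12 higher and 3 lower (median 0.07). Slc15a2, a peptide transporter that carries 5-ALA into cells, stood at 472, 480.3 and 488 CPM in WT and 300.2, 288 and 282 CPM with 5-ALA (log2 difference -0.73, SE 0.0239, adjusted p = 4.78e-21). Tmem14c, which is needed for porphyrin import into mitochondria, was higher by 0.34 on the log2 scale. Tspo2, an erythroid relative of the mitochondrial translocator protein, was among the 10 genes with the largest rises and is described below.

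Genes that break down, carry or sense heme fell on both sides of WT. Of 10 tested, 4 were higher and 4 lower (median 0.11). Hmox1 (chromosome 8, 75093621 to 75100589, plus strand), the inducible heme oxygenase, stood at 274, 276 and 279.7 CPM in WT, 26.8, 26.2 and 26.2 CPM without 5-ALA and 142, 151 and 155 CPM with it. The 3 groups were apart from each other. With 5-ALA Hmox1 rose from the mutant level by 2.51 on the log2 scale (adjusted p = 8.21e-30) and stayed -0.88 from WT (SE 0.0269, adjusted p = 7.62e-22). Flvcr1, a heme exporter, stood at 131, 130.5 and 129.6 CPM in WT, 60.4 CPM on average without 5-ALA and 126, 121 and 120.2 CPM with it (log2 difference from WT -0.09, adjusted p = 0.00538), and this small difference lost its call without the second or the third 5-ALA library (adjusted p = 0.0814 and 0.0844). Slc48a1, a heme transporter of endosomes, stood within 0.32 of WT on the log2 scale (difference -0.22, 95% interval -0.27 to -0.18). Blvrb, a biliverdin reductase, was lower (log2 difference -0.43), and Hebp1, a heme-binding protein, was higher by 0.47. Hmox2, the constitutive heme oxygenase, was higher by 1.52 with no detectable change with 5-ALA (-0.11, adjusted p = 0.168). It lies in a stretch of chromosome 16 whose genes were higher in both mutant groups, given under the other observations.

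Thiol and redox genes that BACH1 and NRF2 control rose with 5-ALA, and their median came near the WT level. Against mutant cells without 5-ALA, 18 of 21 tested rose and 1 fell, beside 21.6% and 21% of all genes. Against WT, 5 were higher and 10 lower with 5-ALA (median log2 difference -0.06), whereas without 5-ALA 3 were higher and 16 lower (median -0.77). Srxn1, sulfiredoxin, stood at 208, 214 and 214 CPM in WT, 16.3, 19.4 and 17.3 CPM without 5-ALA and 86.8, 85.3 and 87.2 CPM with it. It remained the farthest below WT of the called members (log2 difference -1.29, SE 0.0311, adjusted p = 2.98e-24). The cystine transporter gene Slc7a11 stood at 55.2, 58.8 and 58 CPM in WT, 11.4 CPM on average without 5-ALA and 48, 46.9 and 45.8 CPM with it (log2 difference from WT -0.29, adjusted p = 8.15e-07). G6pdx and Pgd, which supply NADPH from the pentose phosphate pathway, were lower than in WT (log2 differences -0.64 and -0.63). For Gclc, the catalytic subunit of glutathione synthesis, the quinone reductase gene Nqo1 and the ferritin chains Ftl1 and Fth1, log2 differences from WT were 0.00, 0.01, 0.04 and 0.05, and none was called (95% intervals -0.06 to 0.06, -0.16 to 0.19, -0.01 to 0.10 and -0.01 to 0.11). Me1, malic enzyme, stood at 2.77, 2.28 and 1.98 CPM in WT and 5.84, 6.59 and 6.15 CPM with 5-ALA, higher than both WT (log2 difference 1.38, adjusted p = 8.26e-12) and mutant cells without 5-ALA (1.16, adjusted p = 3.24e-10). The other two of the 23 members, Gstm1 and Gstm5, had too few counts.

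The antioxidant response element is the short sequence at which NRF2 activates and BACH1 represses, here searched as TGACNNNGC on both strands in the 250 bases before each start. It was found for 5 of the 18 redox genes that have a RefSeq window (27.8%), beside 13.8% of tested genes and 10.2% of all windows: G6pdx, Gclm, Mafg, Prdx1 and Txnrd1. The stretch around the match is printed for 3 of them that rose with 5-ALA, with the match in capitals.
Txnrd1, plus strand, chr10:82859088-82859148: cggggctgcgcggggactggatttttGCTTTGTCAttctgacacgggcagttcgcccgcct
Gclm, plus strand, chr3:122245397-122245457: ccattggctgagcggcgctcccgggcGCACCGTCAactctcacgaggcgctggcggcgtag
G6pdx, minus strand, chrX:74428903-74428963: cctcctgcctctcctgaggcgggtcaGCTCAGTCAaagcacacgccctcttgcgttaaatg
In all 3 the match reads on the opposite strand. Txnrd1, thioredoxin reductase, rose by 1.03, Gclm, the regulatory subunit of glutathione synthesis, by 0.53, and G6pdx by 0.66 on the log2 scale with 5-ALA. With 5-ALA they stood at -0.27, -0.31 and -0.64 from WT. A match is not a bound site. The redox list was built from genes known to respond to BACH1 or NRF2, so its share of matches describes the list. The same letters occurred in 5 of 23 ATF4 response genes with a window (21.7%) and in 1 of 12 synthetase genes (8.33%), 2 lists described below.

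Iron genes did not follow a single direction, with 8 of 18 higher and 6 lower (median 0.10). Tfrc, the transferrin receptor, stood at 1489, 1526 and 1537 CPM in WT, 725 CPM on average without 5-ALA and 1253, 1229 and 1211 CPM with it, so that it rose with 5-ALA (0.76 on the log2 scale) and stayed -0.30 from WT. Steap3, the endosomal ferrireductase, and Tfr2, the second transferrin receptor, were higher than in WT by 1.72 and 1.76. Aco1, the iron-sensing aconitase, was higher by 0.97. Slc40a1, ferroportin, the iron exporter, went from 73.8, 76.7 and 73 CPM in WT and 48.2, 46.4 and 46.5 CPM without 5-ALA to 111, 111 and 111 CPM with it, above both. Of the 17 iron-sulfur cluster genes, 7 were higher and 4 lower (median 0.05), none of them by 2-fold.

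Genes of the ATF4 stress response were mostly higher than in WT although 5-ALA was supplied. Of 26 tested, 16 were higher and 6 lower (median 0.58), and 9 were higher by at least 2-fold, a size that 3.59% of all genes reached. Without 5-ALA the counts against the same WT libraries were 16 higher and 8 lower (median 0.40). Between the 2 mutant groups 14 of 26 rose with 5-ALA and 6 fell (median 0.13), beside 21.6% and 21% of all genes. The share that fell was thus near that of all genes. Atf4 itself stood at 105, 105 and 105 CPM in WT, 258, 261 and 272 CPM without 5-ALA and 278, 289.9 and 305 CPM with it (log2 difference from WT 1.47, SE 0.0295, adjusted p = 9.02e-26). The groups with and without 5-ALA were both far above WT, and 5-ALA added 0.14 on the log2 scale (adjusted p = 8.43e-05).

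The list's largest differences were in Nupr1, Pck2 and Psat1, and enzymes of amino acid synthesis were among the higher members. Psat1 of serine synthesis stood at 30.9, 30.0 and 29 CPM in WT, 158, 161 and 159 CPM without 5-ALA and 146, 145 and 145 CPM with it (log2 difference from WT 2.27, SE 0.0303, adjusted p = 3.35e-30). Asns, asparagine synthetase, stood at 109, 105 and 108 CPM in WT and 279, 278 and 283 CPM with 5-ALA (log2 difference 1.39, adjusted p = 1.1e-26). The one-carbon genes Mthfd2 and Shmt2 were higher as well, Shmt2 by 1.19 on the log2 scale. Pck2, mitochondrial PEP carboxykinase, stood at 2.51, 2.32 and 2.12 CPM in WT and 13.2, 15.1 and 15.5 CPM with 5-ALA. Nupr1, a stress-induced chromatin protein, stood at 4.63, 5.72 and 5.09 and 37.3, 38.9 and 38.5 CPM, and Trib3, a pseudokinase that restrains ATF4, at 18.9, 20.2 and 21.9 and 64.9, 71.6 and 72.9 CPM. For each of these 3 genes the groups were wide apart, with log2 differences of 2.65, 2.89 and 1.79. Members below WT were Cbs, Sesn2, Ppp1r15a, Ddit4, Slc7a11 and Eif2ak1, the HRI kinase itself, which differed by -0.11. Ddit3, which encodes CHOP, was higher by 0.42 and did not move detectably with 5-ALA (-0.04, adjusted p = 0.239). Atf3, Chac1, Cth, Gdf15, Phgdh, Stc2 and Vldlr had too few counts for a test.

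Cytosolic aminoacyl-tRNA synthetases, which charge tRNAs, were higher in all but 1 case: 18 of 19 were higher and Dars was lower (-0.09), with a median log2 difference of 0.65. Sars stood at 167, 158 and 161 CPM in WT and 381, 378 and 391 CPM with 5-ALA (log2 difference 1.24, SE 0.0265, adjusted p = 1.88e-25), and was the only member higher by 2-fold. Aars, Eprs and Wars were higher by 0.97, 0.94 and 0.90. Compared with mutant cells without 5-ALA, 13 rose and 2 fell (median 0.12), beside 21.6% and 21% of all genes. The C/EBP-ATF response element, at which ATF4 acts with C/EBP partners, was searched as TGATGNAA on both strands in the same windows. It occurred in 5 of 23 ATF4 response genes with a window (21.7%; Asns, Herpud1, Nupr1, Pck2 and Slc7a11) and in 3 of 12 synthetase genes (25%; Aars, Gars and Tars), beside 2.55% of tested genes and 3.45% of all windows. The ATF4 list holds known targets by its construction, so its share describes the list. The matches of 4 genes that were higher than in WT are printed with the element in capitals.
Pck2, plus strand, chr14:55540137-55540196: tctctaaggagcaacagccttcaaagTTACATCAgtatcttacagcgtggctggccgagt
Nupr1, minus strand, chr7:126625547-126625606: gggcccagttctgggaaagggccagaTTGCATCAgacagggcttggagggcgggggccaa
Asns, minus strand, chr6:7693210-7693258: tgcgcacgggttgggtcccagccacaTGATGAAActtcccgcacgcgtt
Aars, plus strand, chr8:111033704-111033763: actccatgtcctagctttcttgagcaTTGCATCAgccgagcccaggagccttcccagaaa
Not every gene with the letters was higher: Slc7a11 was lower and Herpud1 was not called (0.01, adjusted p = 0.798).

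Components of the cytosolic ribosome were higher almost throughout. Of 77 ribosomal protein genes tested, 73 were higher and 3 lower (median log2 difference 0.59), and they took 4.25 to 4.35% of counts in mutant libraries with 5-ALA against 2.80 to 2.82% in WT. Rpl12 stood at 108, 104 and 106 CPM in WT and 207, 217 and 216 CPM with 5-ALA (log2 difference 1.00, SE 0.0267, adjusted p = 3.05e-23), and Rps12 and Rpl10a were higher by 0.90 and 0.84. Among the lower genes were Rpl29 and the p53-induced Rps27l, with log2 differences of -0.96 and -0.21. Between the mutant groups, 60 fell with 5-ALA and 1 rose (median -0.15), a small step back towards WT. Of all genes, 21% fell and 21.6% rose. Many of these genes have processed pseudogenes with which they may share reads.

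Nuclear genes of the respiratory chain were mostly higher than in WT, and mitochondrial mRNAs mostly lower. Of 76 nuclear genes of the respiratory complexes, 62 were higher and 2 lower (median 0.27), for example Ndufb10 of complex I at 76.9, 76.5 and 78 CPM in WT and 114, 120.5 and 124 CPM with 5-ALA (log2 difference 0.63, adjusted p = 1.07e-16). None of the 76 differed by 2-fold. Of the 13 mRNAs of the mitochondrial genome, 3 were higher and 9 lower (median -0.26). mt-Co3 of cytochrome oxidase stood at 1964, 1999.8 and 1956 CPM in WT and 1313, 1329 and 1292 CPM with 5-ALA (log2 difference -0.59, SE 0.0263, adjusted p = 7.03e-18), and mt-Nd6 was higher by 0.34. Neighbouring mitochondrial transcripts overlap, and strand use in counting is not given in the sources used here.

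Cholesterol genes were above WT in mutant cells and came most of the way back with 5-ALA. Of 26 tested, 16 were higher and 2 lower than in WT (median 0.26), whereas without 5-ALA 24 were higher and 1 lower (median 0.77). Between the mutant groups 24 fell and 1 rose (median -0.47), beside 21% and 21.6% of all genes. Hmgcs1, HMG-CoA synthase, stood at 344, 343 and 347 CPM in WT, 693, 666 and 666 CPM without 5-ALA and 347, 344 and 339 CPM with it, so that the 5-ALA and WT groups coincided (log2 difference 0.00, 95% interval -0.05 to 0.05). The mevalonate enzymes Mvk and Mvd and the sterol isomerase Ebp stayed higher by 0.82, 0.71 and 0.68. With DESeq2 size factors 15 cholesterol genes were higher and 5 lower. Among 15 genes of fatty acid synthesis and activation, 9 were higher and 5 lower (median 0.19), with Acsl4 higher by 1.04 and Elovl6 lower (log2 difference -1.37).

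Genes of glycolysis and the pentose phosphate pathway lay on both sides of WT. Of 24 genes, 12 were higher and 8 lower (median 0.10). The liver-type phosphofructokinase Pfkl stood at 24.6, 24.8 and 25.7 CPM in WT, 12.7, 13.5 and 13.4 CPM without 5-ALA and 8.11, 8.11 and 8.6 CPM with it (log2 difference from WT -1.59, SE 0.053, adjusted p = 6.45e-21). The muscle-type Pfkm stood at 32.1, 33.2 and 33.4 CPM in WT, 88.3, 92.5 and 96 CPM without 5-ALA and 77.8, 75.7 and 76.8 CPM with it (log2 difference 1.22, adjusted p = 1.44e-21). Pfkl was thus lowest and Pfkm intermediate in the cells with 5-ALA. Ldha, lactate dehydrogenase A, was also lowest there, while Pklr, the red cell pyruvate kinase, Aldoc and Pgam1 were higher than in WT by 1.81, 1.67 and 1.07. With 5-ALA, 16 of the 24 fell and 6 rose from the mutant level (median -0.23), beside 21% and 21.6% of all genes. Pgk1, Eno1 and Hk2, which were above WT without 5-ALA, stood at 0.02, 0.04 and 0.09 from WT with it, and none of these was called.

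**Figure D3:**
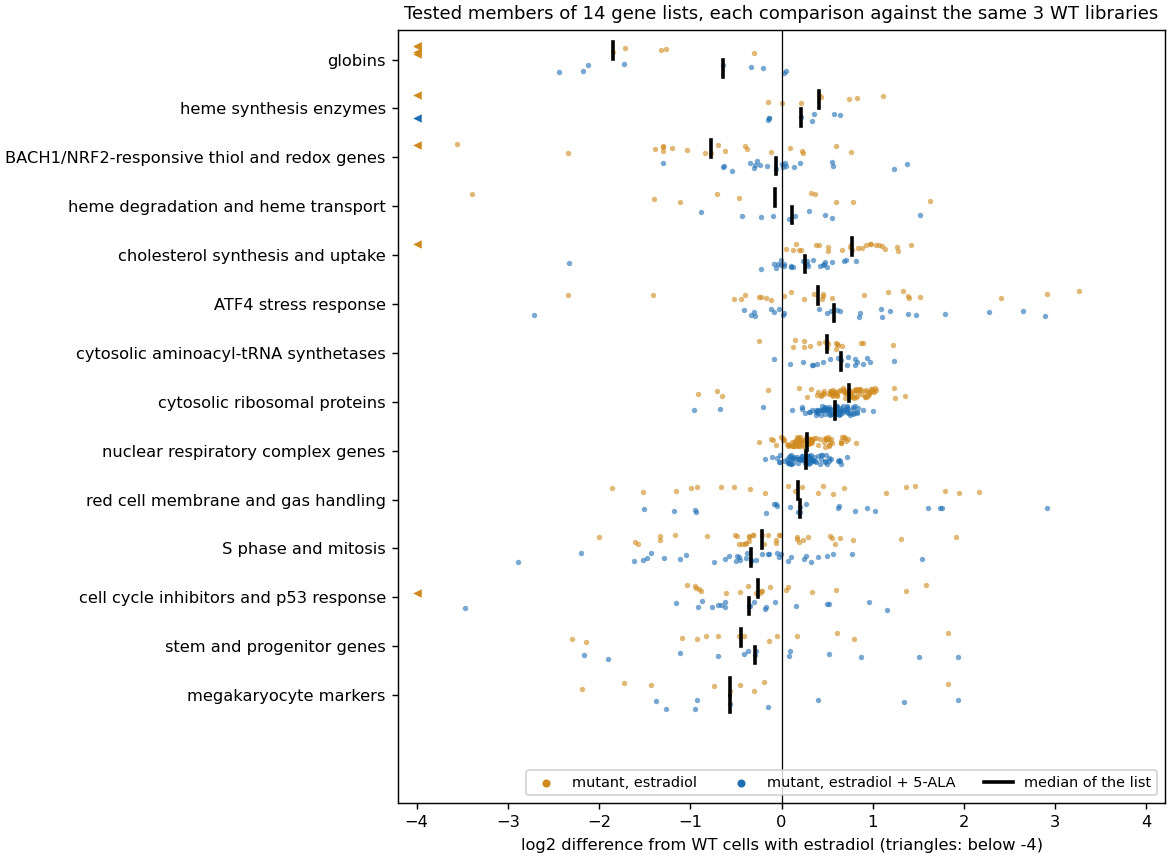
Log2 difference from WT cells with estradiol (horizontal axis) of each tested member of 14 gene lists, in mutant cells without 5-ALA (orange) and with it (blue); black bars are list medians, and triangles mark members below -4. The medians of globins, redox genes and cholesterol genes lie nearer 0 with 5-ALA, while those of ATF4 genes, tRNA synthetases, ribosomal proteins and nuclear respiratory genes lie above 0 in both.

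Membrane and gas-handling genes of the red cell were mixed, with 14 of 22 higher and 5 lower (median 0.20). The cytoskeletal protein gene Epb41 (protein 4.1) stood at 3468, 3479 and 3542 CPM in WT, 963, 971 and 955 CPM without 5-ALA and 1227, 1232 and 1234 CPM with it (log2 difference from WT -1.51, SE 0.0225, adjusted p = 5.7e-29). Slc4a1, the anion exchanger band 3, stood at 2827, 2808 and 2829 CPM in WT and 1448, 1474 and 1487 CPM with 5-ALA (log2 difference -0.94, adjusted p = 6.32e-22). Both rose with 5-ALA and both stayed below WT. Add2, beta-adducin, stood at 179.8, 178 and 185 CPM in WT, 454, 471 and 473 CPM without 5-ALA and 581, 602 and 624 CPM with it, above WT by 1.74 on the log2 scale. Dmtn, dematin, which binds the same junctions, was higher by 1.61. Car2, carbonic anhydrase II, was lower (log2 difference -0.94) and did not move detectably with 5-ALA (-0.01, adjusted p = 0.698). It lies in a stretch of chromosome 3 in which several neighbours were lower too, also given under the other observations.

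Erythroid transcription factors and cofactors split evenly, with 9 of 23 higher, 9 lower and a median of 0.00, which was -0.03 with DESeq2 size factors. Klf1 and Gfi1b differed from WT by 0.01 and 0.00 on the log2 scale and were not called (95% intervals -0.18 to 0.19 and -0.05 to 0.05). Foxo3, which drives antioxidant and maturation genes of erythroblasts, stood at 1427, 1446 and 1468 CPM in WT and 897, 928 and 945 CPM with 5-ALA (log2 difference -0.65, SE 0.0242, adjusted p = 1.04e-19), with no detectable change with 5-ALA (0.01). Bcl11a, a repressor of embryonic globin genes, stood at 6.69, 6.3 and 6.98 CPM in WT, 26.5, 26 and 25.9 CPM without 5-ALA and 17.1, 18.8 and 17.5 CPM with it (log2 difference from WT 1.43, adjusted p = 3.44e-18). It fell with 5-ALA (-0.55, adjusted p = 6.92e-11) and stayed above every WT library. Bach1 was higher by 0.13, and Nfe2l2, which encodes NRF2, differed by 0.00 (adjusted p = 0.969).

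Stem and progenitor genes were more often lower, 8 of 14 against 3 higher (median -0.29). Kit, the stem cell factor receptor, stood at 17.6, 18.2 and 17.1 CPM in WT and 4.65, 4.18 and 5.24 CPM with 5-ALA (log2 difference -1.91, SE 0.0754, adjusted p = 2.26e-18), and Myb was lower as well (log2 difference -2.16). Spi1, which encodes PU.1, went the other way, at 5.16, 5.38 and 4.73 CPM in WT, 6.13, 5.58 and 5.66 CPM without 5-ALA and 14.3, 14.6 and 14.8 CPM with it (log2 difference from WT 1.51, adjusted p = 6.42e-17). Myc stood at 42.9, 42.9 and 46 CPM in WT, 37, 41.2 and 40.2 CPM without 5-ALA and 77.5, 81.2 and 82.7 CPM with it (log2 difference from WT 0.88, adjusted p = 2.29e-15). For both genes the WT libraries and the mutant libraries without 5-ALA lay close to each other, and the libraries with 5-ALA stood well above both. Among 9 megakaryocyte markers, 5 were lower and 1 higher (median -0.57). Itgb3, integrin beta-3, stood at 1779, 1775 and 1799 CPM in WT and 679, 684 and 696 CPM with 5-ALA (log2 difference -1.38, adjusted p = 1.4e-27), and Pf4, platelet factor 4, was the member that was higher, at 2.37 and 6.02 CPM on average.

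Genes of S phase and mitosis were mostly lower, although at low levels, and so were genes that hold the cell cycle back. Of 37 genes of S phase and mitosis, 22 were lower and 7 higher (median -0.34). Mcm6 of the replicative helicase stood at 21.9, 21.2 and 21.3 CPM in WT and 6.96, 7.19 and 8.29 CPM with 5-ALA (log2 difference -1.52, SE 0.0781, adjusted p = 2.86e-12). The checkpoint kinase gene Bub1b was at 2.18 CPM on average in WT and 0.295 CPM with 5-ALA. Cdc6, which loads the helicase, was higher, at 2.87, 2.96 and 3.2 CPM and 9.27, 8.85 and 8.13 CPM (log2 difference 1.54, adjusted p = 2.19e-15). Of 20 cell cycle inhibitors and p53 response genes, 14 were lower and 5 higher (median -0.35). Trp53inp1 stood at 3689, 3784 and 3809 CPM in WT and 1716, 1687 and 1651 CPM with 5-ALA (log2 difference -1.16, SE 0.0254, adjusted p = 3.19e-25). The antiproliferative Btg2 and Mdm2, the ligase that degrades p53, were lower (log2 differences -0.92 and -0.87), while the inhibitor gene Cdkn2c and the stress gene Gadd45a were higher by 1.16 and 0.96.

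Of 27 autophagy and mitophagy genes, 13 were lower and 9 higher (median -0.04). Sqstm1, the cargo receptor p62, stood at 1708, 1672 and 1693 CPM in WT, 425, 429.5 and 421 CPM without 5-ALA and 945, 978 and 984 CPM with it (log2 difference from WT -0.80, adjusted p = 1.7e-22). The initiating kinase gene Ulk1 and Atg14 were lower (log2 differences -0.74 and -0.80). Lysosome genes were more often higher (13 of 23, 2 lower, median 0.15). The cathepsin L gene Ctsl had 7 counts in all over the WT libraries and 755 over those with 5-ALA, a count ratio scaled for depth of 105 (95% counting interval 50.6 to 261). Among 20 metallothioneins and zinc transporters, 7 were higher and 8 lower. Mt2 stood at 57.6, 58.7 and 57.1 CPM in WT, 327, 323 and 336 CPM without 5-ALA and 136, 143 and 143 CPM with it, and the zinc exporter gene Slc30a1 at 1345, 1359.6 and 1361, 404, 398 and 391 and 851, 845 and 855 CPM. In these 2 genes the 5-ALA libraries lay between the others, with log2 differences from WT of 1.28 and -0.67. Medians were small for proteasome subunits (22 of 37 higher, 8 lower, median 0.13), chaperones (8 of 15 higher, 4 lower, median 0.09) and circadian regulators (7 of 12 higher, 1 lower, median 0.13). Called members were more often higher in each list. Higher by at least 2-fold were 2 proteasome subunits and 1 circadian regulator, Nr1d1, by 1.265 on the log2 scale. Of 38 clustered histone genes tested, 12 were higher (median 0.49), a share near the 33.3% of all genes, and the other 26 were not called. Hist1h2bg was higher by 1.31, and 27 further members had too few counts. Of 12 immediate early genes, 1 was higher and 3 were lower (median -0.09), among them Jun (log2 difference -1.66).

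Among genes with a mean of at least 10 CPM over the 6 libraries, those with the largest rises from WT lay outside heme synthesis. Ttc12 (mm10 chromosome 9, 49436963 to 49486225, minus strand), a protein needed to assemble ciliary dynein, was almost absent from WT, with 0.131, 0 and 0.09 CPM, and stood at 20.5, 19.6 and 19.7 CPM in mutant libraries without 5-ALA and 26.4, 26.2 and 26.3 CPM with it. The 6 counts over WT and 2309 over the 5-ALA libraries give a ratio scaled for depth of 373 (95% counting interval 171 to 1019). Chst10 (chromosome 1, 38863867 to 38898161, minus strand), a carbohydrate sulfotransferase, stood at 2.19, 2.38 and 1.76 CPM in WT and 47.7, 45.8 and 48.5 CPM with 5-ALA (log2 difference 4.47, SE 0.0825, adjusted p = 8.01e-27). Il9r (chromosome 11, 32187541 to 32200279, minus strand), the interleukin-9 receptor, stood at 5.29, 5.72 and 4.1 CPM in WT and 54.2, 51.3 and 52.9 CPM with 5-ALA (log2 difference 3.37, adjusted p = 1.49e-26). Rhag, the Rh-associated glycoprotein of the red cell membrane, stood at 4.93, 4.53 and 4.37 CPM in WT, 19.8, 20.9 and 21.3 CPM without 5-ALA and 35.9, 33.2 and 35.4 CPM with it (log2 difference from WT 2.91, adjusted p = 7.49e-24). In these 4 genes both mutant groups lay above every WT library. Next in size were Nupr1, Tspo2 (4.78 and 24.5 CPM on average), Psat1, the lipid phosphatase gene Mtm1 (6.65 and 31.2 CPM), the secreted factor gene Egfl7 (8.2 and 35.7 CPM) and Dock2, an activator of Rac (5.61 and 23.8 CPM).

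Among the same genes the largest fall after Alas2 was that of Trap1a, a tumour rejection antigen gene on the X chromosome (chromosome X, 139333683 to 139338169, plus strand). It stood at 189, 195 and 186 CPM in WT and 0.793, 0.885 and 1.07 CPM with 5-ALA (log2 difference -7.68, SE 0.0641, adjusted p = 3.06e-35). Igsf3, a membrane protein of the immunoglobulin superfamily, stood at 26.1, 22.5 and 23.8 CPM in WT and 1.08, 1.31 and 1.07 CPM with 5-ALA (log2 difference -4.39, adjusted p = 8.11e-24). Pde6a, a cGMP phosphodiesterase subunit known from photoreceptors, stood at 49.8, 51.6 and 54.6 CPM and 3.68, 3.75 and 3.67 CPM (log2 difference -3.81, adjusted p = 1.03e-26). Mid1, a ubiquitin ligase of microtubules, was abundant in WT at 3124, 2951 and 3326 CPM and stood at 589, 521 and 479 CPM with 5-ALA (log2 difference -2.56, SE 0.112, adjusted p = 4.64e-08). Sfmbt2, a Polycomb protein gene, and the long non-coding Gm37381 were lower (log2 differences -3.15 and -2.02), and the 3 embryonic globins complete the 10. In Mid1 and Gm37381 5-ALA made no detectable difference (0.01 and -0.19, adjusted p = 0.963 and 0.059).

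**Figure D4:**
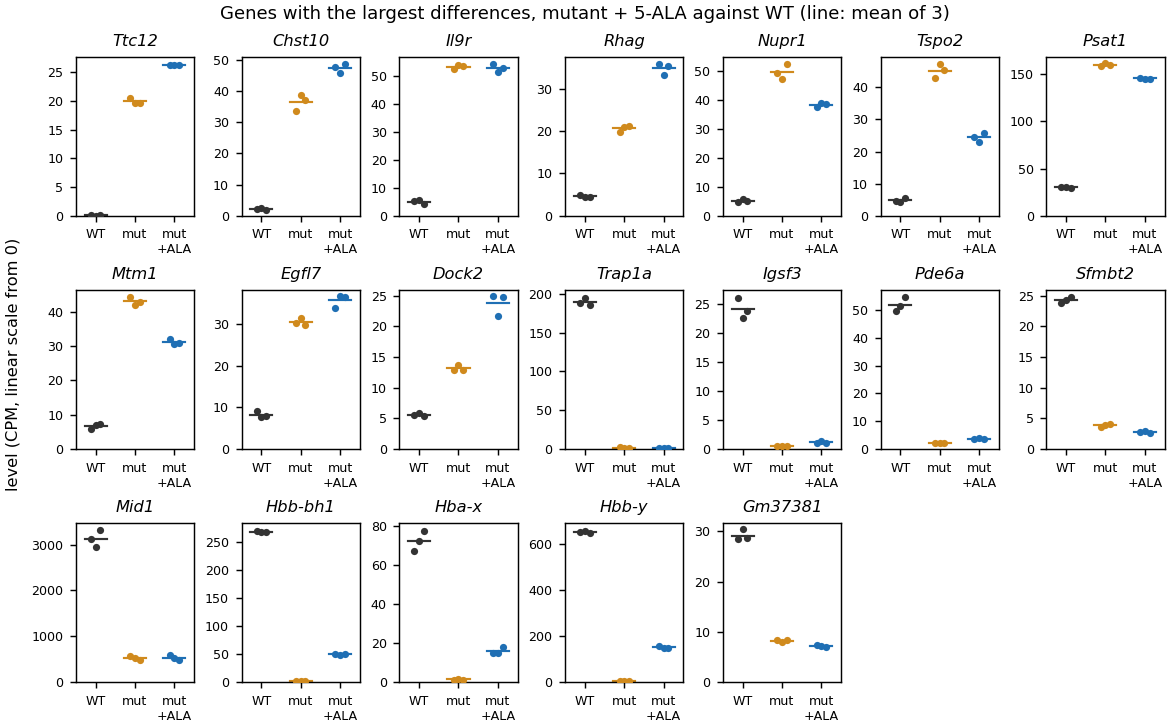
Level (vertical axes, CPM from 0, each panel its own scale) of the 10 genes with the largest rises and 9 of the 10 with the largest falls (Alas2 is left out) in WT cells, mutant cells (mut) and mutant cells with 5-ALA (mut +ALA), all with estradiol; points are libraries and lines means of 3. In every panel both mutant groups lie on the same side of WT, and with 5-ALA the embryonic globins, Tspo2, Mtm1 and several others lie between mutant and WT.

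Some genes that were at least 2-fold lower in mutant cells stood within 0.32 of WT on the log2 scale with 5-ALA. They were picked for these values, which are therefore a description. The rule, which took up to 6 genes per direction by the mutant difference, returned Hbb-bs, Prdx6, Slc48a1, Txnrd1, Ankrd24 and Rit1, and no gene that was higher in mutant cells. Prdx6, a peroxiredoxin that also cleaves phospholipids, stood at 909.7, 919.6 and 902 CPM in WT, 287, 296 and 284 CPM without 5-ALA and 936, 953 and 969 CPM with it. Rit1, a Ras-like GTPase, stood at 135, 131 and 128 CPM in WT, 53.4, 56.1 and 57.6 CPM without 5-ALA and 115, 118 and 121 CPM with it. Log2 differences from WT with 5-ALA ran from -0.27 for Txnrd1 to 0.14 for Ankrd24, an ankyrin repeat protein gene.

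Other genes went past the WT level with 5-ALA, again picked for that pattern. Plek, pleckstrin, a protein kinase C substrate of platelets and leukocytes, stood at 90.2, 93.5 and 92.6 CPM in WT, 71, 68.6 and 66 CPM without 5-ALA and 237, 235 and 234 CPM with it. Amhr2, the receptor of anti-Müllerian hormone, stood at 14.6, 8.72 and 25.9 CPM on average in the same order, and Cyba, a subunit of the NADPH oxidase, at 10.8, 6.39 and 14.9 CPM. Slc40a1, given above, is the fourth gene of this kind. In the opposite direction, Egln1, the prolyl hydroxylase that marks hypoxia-inducible factor for degradation, stood at 10.2, 9.57 and 10.8 CPM in WT, 13.7, 13.6 and 13.4 CPM without 5-ALA and 6.2, 6.59 and 6.43 CPM with it. Smarca2, an ATPase of SWI/SNF remodelling, stood at 67.1, 81.8 and 47.7 CPM, Ddit4, an inhibitor of mTORC1, at 33.7, 42.9 and 27.1 CPM, and 6030468B19Rik at 36.7, 56.1 and 28.7 CPM.

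A last group, also picked for its pattern, lay farther from WT with 5-ALA than without it. Inpp5d, the phosphatase SHIP1 that limits PI3K signalling, stood at 323, 323 and 319 CPM in WT, 299, 308 and 296 CPM without 5-ALA and 638, 648 and 647 CPM with it. Cd200r1, an inhibitory receptor, stood at 11.7, 15 and 27.4 CPM on average in the same order, and Rasal1, an activator of Ras GTP hydrolysis, at 24.5, 26.2 and 51.4 CPM. Plek, Dock2 and Rhag complete the genes on this side. Among those that were lower, Fam162a, a mitochondrial protein gene whose exons overlap Wdr5b, stood at 33.8, 34.8 and 34.1 CPM in WT, 29.7, 28.1 and 30.4 CPM without 5-ALA and 13.1, 13.1 and 12.4 CPM with it. Ldha stood at 90.5, 88.8 and 87.2 CPM in WT, 58.5, 66.4 and 64.9 CPM without 5-ALA and 41.5, 38.1 and 42.1 CPM with it, and Ak1, adenylate kinase, at 26.2, 19.9 and 11.9 CPM on average. Pfkl and Trap1a belong here too. Trap1a was nearly silent in both mutant groups, at 1.48 CPM on average without 5-ALA and 0.915 CPM with it. Only its WT libraries, at 190 CPM on average, brought it over the level asked for. In each of these genes the 3 libraries with 5-ALA lay beyond all 6 others. The choice asked for a difference from both other groups, so this separation is no result of its own.

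**Figure D5:**
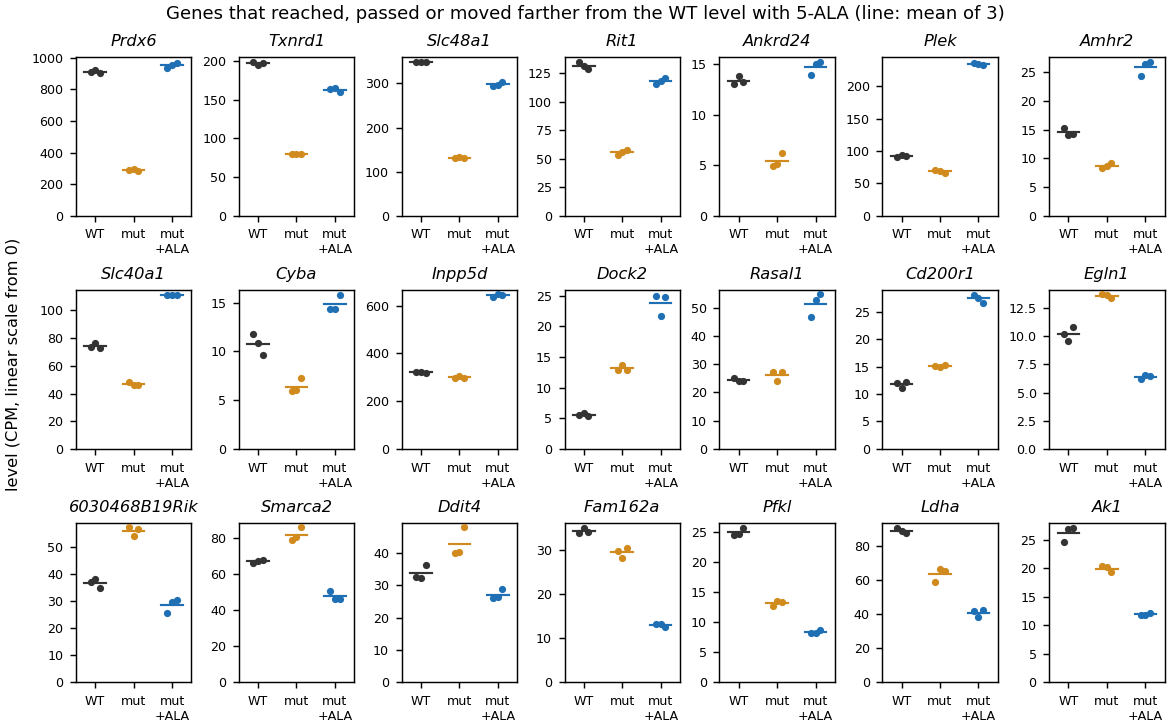
Level (vertical axes, CPM from 0, each panel its own scale) of 21 genes in WT cells, mutant cells (mut) and mutant cells with 5-ALA (mut +ALA), all with estradiol; points are libraries and lines means of 3. The first 5 panels (Prdx6 to Ankrd24) show genes near the WT level with 5-ALA, Plek to Cyba and Egln1 to Ddit4 genes that crossed it, and Inpp5d to Cd200r1 and Fam162a to Ak1 genes farther from it.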

How the data were processed

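RNA of 12 libraries of mouse G1E-ER-GATA-1 cells was extracted with TRIzol and prepared with a TruSeq kit, per the labels' protocols. Tools appear in the submitters' processing notes without roles, namely Bowtie 1.1.1, RSEM 1.2.20 and CASAVA 1.8.2, with the build mm10. Annotation release and strand use: not given in the sources used here. Per the file headers, the deposited values are RSEM expected counts, in which reads shared by paralogs are divided by a model. The authors also deposited TPM, used for alternatives, and FPKM, which is not used here. Expected counts were rounded, filtered with filterByExpr (12115 of 25097 genes kept), and TMM-scaled. One edgeR 4.0.16 model (R 4.3.3) of the 12 libraries estimated a mean for each of 4 groups, untreated WT cells being the fourth. It used the robust quasi-likelihood F test and Benjamini-Hochberg adjustment over the 12115 genes. Calls, and the words rose and fell, stand for an adjusted p below 0.05. SE is the absolute log2 difference over the square root of F, an approximation, and 95% intervals use it without adjustment for multiple tests. The fit was tested on simulated data drawn with its own estimates of spread. Far fewer genes were changed there than were called here, so that test does not bear on the scaling. Counts ran from 20309085 to 43548387 per library.

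Members and gene lists were chosen with earlier results of these data known. Named genes were Alas2, Gata1 and Gata2, the 10 largest rises and falls with at least 10 CPM and no overlap of groups, all tested globin, heme synthesis and heme transport genes, up to 4 called members of each other list, and up to 6 genes per direction that came within 1.25-fold (0.32 on the log2 scale) of WT, up to 4 that passed it and up to 6 that moved farther from it with 5-ALA. Other members of lists were named after their values were seen, and a few genes under the rule are not reported here. Symbols and positions came from GENCODE M21 (24746 identifiers matched) and promoters from RefSeq on GRCm38.p6. Genes whose exons overlap another gene's can share reads, among those named Alas2, Cpox, Ppox, Hmox2, Slc48a1, Hebp1, G6pdx, Mafg, Epb41, Sqstm1, Shmt2, Ddit3, Ppp1r15a, Eif2ak1, Rpl12, mt-Co3, mt-Nd6, Pfkm, Pklr, Egfl7, Plek and Fam162a. Alternatives were other scalings (DESeq2 1.42.0 size factors, upper quartile, TMM without globins and Alas2), other filters, the DESeq2 test, a test against 1.25-fold (glmTreat), limma 3.58.1 on TPM, a replicate block, a fit of 2 groups and leaving out each library.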

Additional observations from a re-analysis of the deposited data

How the results depend on the processing

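In the comparison of mutant cells with 5-ALA and WT cells, 1637 genes were higher and 1381 lower with glmTreat, which tests for differences beyond 0.32 on the log2 scale, and limma on log2(TPM + 1) found 195 higher and 152 lower by at least 2-fold, a scale that understates changes of low genes. With glmTreat, mutant cells without 5-ALA had 2179 higher and 2039 lower genes than WT, and 518 genes rose and 288 fell with 5-ALA. Limma on TPM gave 2326 (pseudocount 1) and 2309 (0.1) lower genes for mutant cells against WT, and 806 (789) that rose and 5719 (5663) that fell with 5-ALA. The median of all genes moved there to -0.15 (-0.19), and the cause of that shift was not tested. Over the other scalings, filters and tools, counts for mutant cells with 5-ALA ran from 3448 to 4061 higher and 3188 to 3815 lower, and without each library in turn from 3810 to 3995 higher and 3174 to 3453 lower. With a replicate block there were 3989 higher and 3467 lower genes, and no named gene changed its call. Same-numbered WT and 5-ALA libraries deviated with correlations of -0.051, -0.073 and 0.019, so no shared deviation was seen. Whether equal numbers stand for samples handled together cannot be told from this. Of 167 named genes, 29 lost their call with glmTreat and at most 4 under any other alternative. Flvcr2, with under 1 CPM, went from 0.56 to between -0.26 (without the first 5-ALA library) and 0.93 when single libraries were left out, and with DESeq2 size factors the medians of erythroid transcription factors (-0.0271) and of the erythroid markers (-0.022) changed sign. Prdx6, called at 0.07, lost its call in 9 alternatives. Genes with under 20 counts in a group are limited by depth, and the intervals of their ratios cover counting error only.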

Other observations

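Genes that differ from WT lay together at a few places in the genome. The borders of these stretches were chosen after the values were seen, so the counts are a description with no test. On chromosome 16, from Zfp263 to Eef2kmt (mm10, 3744093 to 5255983), 31 of 35 tested genes were higher in mutant cells with 5-ALA than in WT and none was lower (edgeR, median log2 difference 1.15, beside 0.01 over all genes). The median without 5-ALA was 1.17, and that of the change with 5-ALA was -0.10. Slx4, a scaffold of DNA repair nucleases, stood at 83.1 ± 0.962 CPM in WT (mean ± SD, n = 3), 311 ± 6.48 CPM without 5-ALA and 266 ± 1.96 CPM with it. The mitochondrial chaperone gene Trap1 stood at 18.9 ± 0.302, 63 ± 0.879 and 58.8 ± 1.1 CPM in the same order, and Crebbp, a histone acetyltransferase gene, at 89.8 ± 0.526, 125 ± 6 and 122 ± 2.47 CPM. Hmox2 lies in this stretch as well.

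On chromosome 3, from Tuft1 to Adamtsl4 (94612757 to 95687917), 28 of 34 tested genes were lower and 2 higher with 5-ALA (median log2 difference -0.63, and -0.67 without 5-ALA). Setdb1, a histone H3 lysine methyltransferase gene, stood at 303 ± 4.62 CPM in WT and 180 ± 2.15 CPM with 5-ALA, and Mcl1, an inhibitor of apoptosis, at 442 ± 4.53 and 289 ± 4.66 CPM. Arnt, the partner subunit of hypoxia-inducible factors, stood at 125 ± 1.8 and 79.4 ± 2.48 CPM. Nearer the start of the same chromosome, from Zfhx4 to Tbl1xr1 (5218526 to 22216594), 16 of 33 were lower and 7 higher (median -0.60), and Car2 is one of the lower genes. Why neighbouring genes moved together was not tested.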
